A study of Mus musculus with 4 samples.

Results

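Hp, Lcn2, Saa3, Chil1, Cxcl1, Cxcl5, Ccl2, Ccl20, Il6 and Vcam1 are genes of the acute-phase and inflammatory response, and their expression is described here on 4 Affymetrix arrays of Comma D beta, an established epithelial line from mouse mammary gland. They were taken by gene symbol from the array annotation, which gave 14 probe sets for the 10 genes, out of 45101 probe sets and 18194 named genes in all. Each gene is represented by its probe set of highest mean over the arrays, and the other probe sets are given where they differ. The genes were chosen by what they do and with their log2 levels on these 4 arrays in view, so the dox and Sca1 differences below describe them and carry no test.

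Overnight culture in medium with 2% serum, 5 ug/ml of insulin and 10 ng/ml of EGF was followed, for the treated cells, by doxycycline (dox) at 100 ng/ml for 1 day. Both conditions were then sorted on the surface marker Sca1, with the same number of Sca1+ and of Sca1- cells collected. The 4 groups are untreated Sca1+, untreated Sca1-, dox-treated Sca1+ and dox-treated Sca1- cells, with 1 array each. All 4 groups share the line, the medium and the sort. The sources used here do not say what dox controls in this line. The series title names Bcl11b, a zinc-finger transcription factor, and the brightest Bcl11b probe set stood at a log2 level of 6.87 (Sca1+) and 6.29 (Sca1-) before dox and at 12.11 and 11.99 under it, while its 3 dimmer probe sets did not share that direction. Dox itself, whatever it switches on, and any difference between the treated and untreated cultures cannot be told apart, and the labels do not say whether the fractions of a treatment came from 1 flask. With no replicate there is no replicate error on any value.

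The acute-phase response is the programme by which the liver, and also secretory epithelia such as the mammary gland, release protective proteins under interleukin and NF-kB signals. Haptoglobin, lipocalin-2 and serum amyloid A3 are such proteins: they bind free haemoglobin, bind bacterial iron carriers, and associate with lipoproteins in inflamed tissue. The chemokines Cxcl1 and Cxcl5 attract neutrophils, Ccl2 attracts monocytes and Ccl20 attracts CCR6-bearing lymphocytes and dendritic cells, while interleukin-6 is a cytokine that drives STAT3. In the mammary gland several of these genes are known for their activity at weaning and during infection.

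The deposited values are log2 levels with a floor at a linear level of 10, or 3.32 on the log2 scale, where 44.8% to 48.0% of each array's probe sets stood. A difference against a floor value is a lower bound, written "at least". Differences were called by size alone, at 2-fold or more, which is 1 on the log2 scale. The background for a call is the share of 12264 genes that reached it; these genes had at least 1 array at or above 3.63 on the log2 scale, the pooled median of all probe sets. All 10 genes described here were among them, and 5 of the 10 (Lcn2, Chil1, Cxcl1, Cxcl5 and Il6) lay above the floor on all 4 arrays. All 8 epithelial markers fixed for this work passed that filter, which a level just above the floor can do. Among them Krt14 stood at log2 levels from 11.54 to 11.92, Epcam from 10.28 to 11.69, Krt18 from 9.77 to 11.37 and Trp63 from 8.63 to 10.14. The lowest were Krt8 and Krt7, at 5.94 and 5.09 in dox-treated Sca1+ cells. Of 12 leukocyte markers with a probe set, Ptprc, Cd3e, Cd79a, Itgam, Fcer1g and Tyrobp were at the floor on every array, as were Apoa1, Ttr and Ahsg of the hepatocyte markers. The gene of the Sca1 marker was not analysed here, so the sort rests on the labels.

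The genes fell into 3 patterns. Hp, Lcn2, Chil1 and Cxcl1 were lower with dox in Sca1+ and in Sca1- cells, and lower in Sca1+ than in Sca1- cells whether dox was present or not. Cxcl5 and Il6 were low on the untreated Sca1+ array alone and stood close together on the other 3 arrays. Vcam1 was at the floor on the untreated arrays and above it on the dox arrays, and Saa3, Ccl2 and Ccl20 stayed near the floor throughout.

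**Figure D1:**
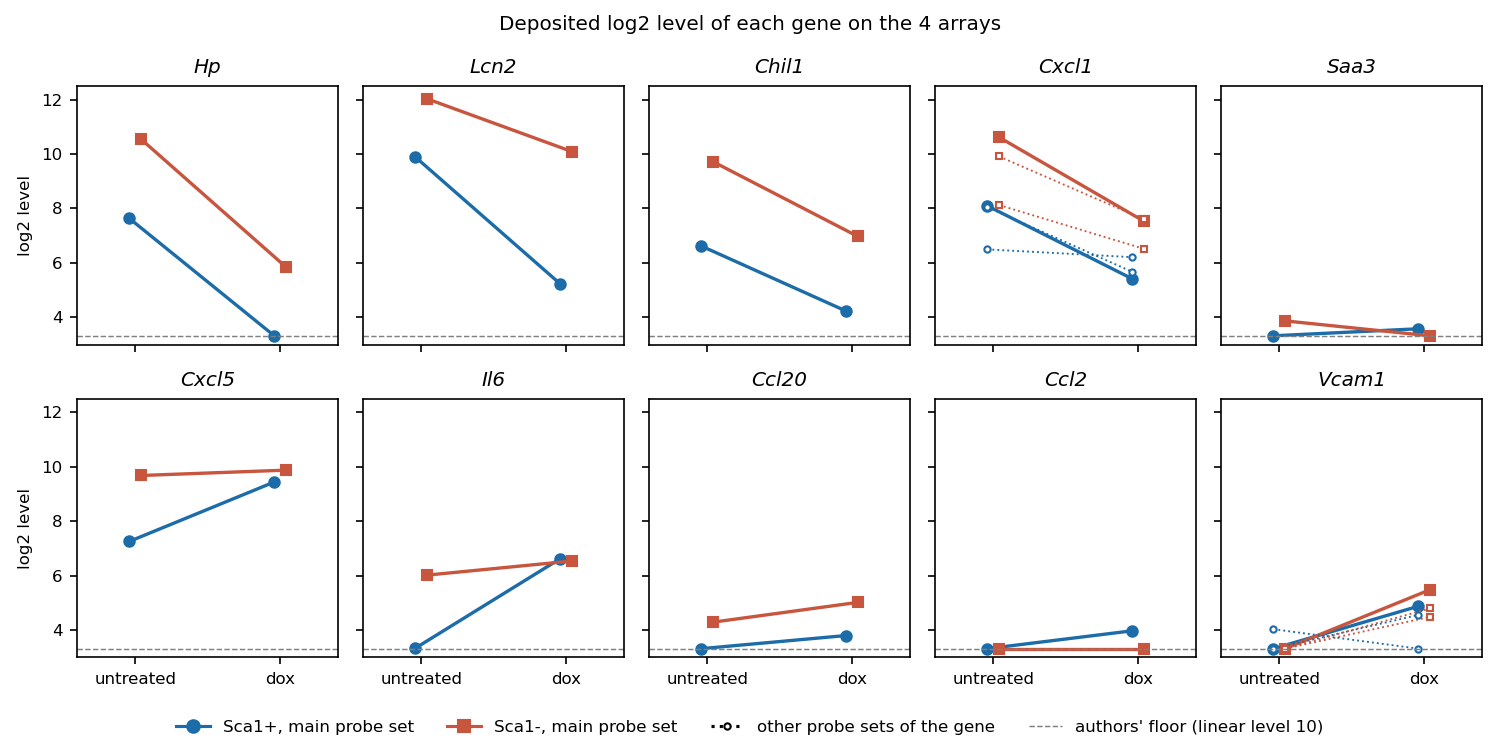
Deposited log2 level (vertical axis) of each gene without and with dox (horizontal axis), with 1 array per point; circles are Sca1+ cells, squares Sca1- cells, filled symbols the main probe set, small open symbols other probe sets, and the dashed line the floor at a linear level of 10. Hp, Lcn2, Chil1 and Cxcl1 slope down in both fractions with the Sca1- line above, while the lines of Cxcl5 and Il6 meet on the dox arrays.

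Hp encodes haptoglobin, the plasma protein that captures free haemoglobin. Its log2 level was 10.55 in untreated Sca1- cells, 7.63 in untreated Sca1+ cells, 5.85 in dox-treated Sca1- cells and 3.32, the floor, in dox-treated Sca1+ cells. The arrays did not tie: in linear level they went from 1496 through 198.4 and 57.8 to 10 or less. Under dox the Hp level of Sca1+ cells was at least 19.8-fold lower, and that of Sca1- cells 25.9-fold lower. Between the fractions it was 7.54-fold lower in Sca1+ cells before dox and at least 5.78-fold lower under it.

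Lcn2 encodes lipocalin-2, which withholds iron from bacteria by binding their siderophores. Its log2 level was 12.03 in untreated Sca1- cells, 10.09 in dox-treated Sca1- cells, 9.89 in untreated Sca1+ cells and 5.23 in dox-treated Sca1+ cells. The 2 middle arrays differed by 0.20, and the dox-treated Sca1+ array stood far below the other 3. The dox difference was 25.3-fold in Sca1+ cells (log2 difference -4.66) but 3.83-fold in Sca1- cells (-1.94). Correspondingly, Lcn2 was 4.41-fold lower in Sca1+ than in Sca1- cells without dox and 29.1-fold lower with dox. The dox difference in Sca1+ cells exceeded that in Sca1- cells by 2.72 on the log2 scale, a gap that 6 of the 10261 genes above the floor on all arrays (0.0585%, Lcn2 included) reached or passed in either direction. That gap was not tested, since it combines 4 single arrays.

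Chil1 encodes a chitinase-like secreted glycoprotein without chitinase activity, a marker of inflammation and tissue remodelling. Its log2 level was 9.72 in untreated Sca1- cells, 6.97 in dox-treated Sca1- cells, 6.62 in untreated Sca1+ cells and 4.23 in dox-treated Sca1+ cells. The order of the arrays was that of Lcn2, and again the 2 middle arrays were close. Dox-treated cells had a 5.25-fold lower Chil1 level than untreated ones in the Sca1+ fraction and a 6.72-fold lower level in the Sca1- fraction. The Sca1+ level was below the Sca1- level by 8.58-fold before dox and by 6.70-fold under it. The dox differences of the fractions were 0.36 apart on the log2 scale, a gap that 33.1% of genes above the floor on all arrays reached or passed.

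Cxcl1 encodes a neutrophil-attracting chemokine with the ELR motif. By its brightest probe set, 1457644_s_at, whose suffix marks probes shared by several transcripts, the log2 level was 10.62 in untreated Sca1- cells, 8.10 in untreated Sca1+ cells, 7.53 in dox-treated Sca1- cells and 5.42 in dox-treated Sca1+ cells. As for Hp, the untreated arrays stood above the dox arrays and the Sca1- array above the Sca1+ array of the same treatment. The dox difference was 6.41-fold in Sca1+ and 8.49-fold in Sca1- cells, and the Sca1 difference 5.75-fold without and 4.34-fold with dox, each time lower with dox or in Sca1+ cells. The second probe set, 1419209_at, gave the same directions: dox levels were 5.19-fold (Sca1+) and 4.97-fold (Sca1-) lower, and Sca1+ levels 3.64-fold (no dox) and 3.80-fold (dox) lower. The third, 1441855_x_at, whose probes can match other sequences, differed in size: its dox difference was 1.22-fold in Sca1+ and 3.05-fold in Sca1- cells, both downward. The Sca1 difference by that probe set was 3.09-fold without dox and 1.24-fold with dox.

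Of the 10 genes these 4 alone were lower by 2-fold or more under dox in both fractions, a call that 8.56% of all genes reached. In Sca1+ cells alone 12.9% of genes were lower by 2-fold or more and in Sca1- cells 11.3%, and the same 4 of the 10 genes were called in each. The same 4 were also at least 2-fold lower in Sca1+ than in Sca1- cells both without and with dox, a call of 0.881% of all genes, and 60 genes (0.489%) met both calls at once. Since the genes were picked with these differences known, nothing is read from the counts against the background. Over the 10 genes the median dox difference was 0.37 in Sca1+ cells and, over the 9 with a value, -0.55 in Sca1- cells. Over all genes with a value it was 0.05 and 0.03. The first median lies between the values of Saa3 and Ccl20 and the second is that of Saa3, all bounds against the floor, so these medians have no firm size. In Sca1+ cells 4 of the genes were lower with dox and 6 higher, and in Sca1- cells 5 were lower and 4 higher, so the 10 did not move one way as a set.

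**Figure D2:**
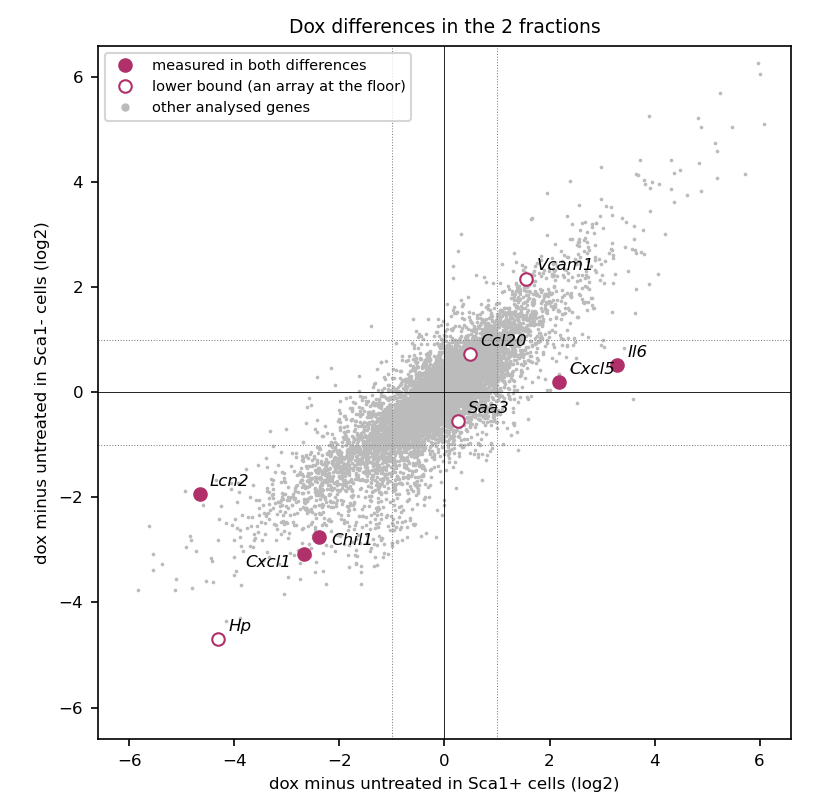
Dox minus untreated log2 difference in Sca1+ cells (horizontal axis) against that in Sca1- cells (vertical axis) for the analysed genes (grey) and the named genes (large circles, open where an array at the floor makes a value a lower bound); dotted lines mark 2-fold. Hp, Lcn2, Chil1 and Cxcl1 lie in the lower left, Cxcl5 (2.18 and 0.20) and Il6 (3.29 and 0.52) lie to the right near the horizontal axis, and Ccl2 is not drawn because both Sca1- arrays were at the floor.

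Cxcl5 encodes another ELR chemokine for neutrophils, and it did not follow Cxcl1. Its log2 level was 7.26 in untreated Sca1+ cells, 9.45 in dox-treated Sca1+ cells, 9.68 in untreated Sca1- cells and 9.88 in dox-treated Sca1- cells. The untreated Sca1+ array was the low one, and the other 3 arrays lay within 0.44 of each other. Under dox the Cxcl5 level was 4.54-fold higher in the Sca1+ fraction and 1.15-fold higher in the Sca1- fraction. The Sca1+ level was 5.36-fold below the Sca1- level before dox and 1.35-fold below it under dox. The dox differences of the fractions were 1.99 apart, a gap that 40 of the 10261 genes above the floor on all arrays (0.39%) reached.

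Il6 encodes interleukin-6, the cytokine that induces acute-phase proteins in hepatocytes through STAT3. Its log2 level was 3.34, next to the floor, in untreated Sca1+ cells, 6.02 in untreated Sca1- cells, 6.54 in dox-treated Sca1- cells and 6.63 in dox-treated Sca1+ cells. As for Cxcl5, the untreated Sca1+ array stood apart from the other 3. Under dox its level was 9.76-fold higher in the Sca1+ fraction and 1.43-fold higher in the Sca1- fraction. It was 6.42-fold lower in Sca1+ than in Sca1- cells without dox, and 1.06-fold higher with dox. The untreated Sca1+ value, a linear level of 10.1 against the floor of 10, is hardly more than a bound, so the 9.76-fold and 6.42-fold differences and the gap between the dox differences have no firm size and are not ranked. With the floor raised to a linear level of 50, the Il6 dox difference in Sca1+ cells was at least 0.99, a bound that no longer reached 2-fold.

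Vcam1 encodes the adhesion molecule that binds the leukocyte integrin VLA-4. By the probe set of highest mean, 1448162_at, it was at the floor on both untreated arrays, at 4.88 in dox-treated Sca1+ cells and at 5.48 in dox-treated Sca1- cells. Of the 10 genes, 1, Vcam1, was higher by 2-fold or more under dox in both fractions (5.29% of all genes), by at least 2.94-fold for Sca1+ and at least 4.48-fold for Sca1- cells. The probe set 1415989_at gave at least 2.36-fold and at least 2.24-fold. The third, 1451314_a_at, went the other way in the Sca1+ fraction, where it read 4.04 before dox and the floor under it, a drop of at least 1.64-fold. In the Sca1- fraction it was at least 2.78-fold up. With the 3 probe sets averaged, the dox difference in Sca1+ cells was 0.69 on the log2 scale and the call was lost. All Vcam1 values lay at a linear level under 50, and each of its dox differences is a bound against the floor. Together with Cxcl5 and Il6, Vcam1 made 3 of the 10 genes higher by 2-fold or more with dox in Sca1+ cells (8.47% of all genes), against 1 of the 10 in Sca1- cells (7.2% of all genes).

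Ccl20, which recruits CCR6-bearing cells to epithelia, was at the floor in untreated Sca1+ cells, at 3.81 in dox-treated Sca1+ cells, at 4.30 in untreated Sca1- cells and at 5.02 in dox-treated Sca1- cells. Both Sca1- arrays lay above both Sca1+ arrays. Ccl20 was 2.33-fold lower in Sca1+ cells with dox, and at least 1.96-fold lower without dox, a bound just under the 2-fold line. Its dox difference in Sca1- cells, 0.73 higher on the log2 scale, was under 2-fold. In Sca1+ cells the dox difference was at least 0.48 higher, a bound that leaves its size unknown. Saa3, the serum amyloid made outside the liver, was at the floor on the untreated Sca1+ and the dox-treated Sca1- array and at 3.87 and 3.58 on the other 2. Ccl2, the monocyte chemokine, was at 3.98 in dox-treated Sca1+ cells and at the floor on the other 3 arrays. Neither Saa3 nor Ccl2 reached the 2-fold call in any comparison, though each of their differences is a bound or had both arrays at the floor.

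The Sca1 differences show the same split from the other side. Without dox, 6 of the 10 genes (Hp, Lcn2, Chil1, Cxcl1, Cxcl5 and Il6) were at least 2-fold lower in Sca1+ than in Sca1- cells, a call of 3.33% of all genes, and their log2 differences ran from -3.10 for Chil1 to -2.14 for Lcn2. The median over the 8 genes with a value was -2.47, against -0.04 over all genes. With dox, 5 of the 10 were called (Hp, Lcn2, Chil1, Cxcl1 and Ccl20; 2.98% of all genes), Cxcl5 and Il6 were not, and the median of the 10 was -0.91 against -0.05. Of the 10, 0 were 2-fold higher in Sca1+ cells without dox, with dox or both times, calls of 3.07%, 2.52% and 1.08% of all genes. Centring each array on the median of all its probe sets moved the share of all genes called lower in untreated Sca1+ cells from 3.33% to 2.25% and called higher from 3.07% to 5.24%, and the share lower with dox in Sca1+ cells from 12.9% to 16.2% and higher from 8.47% to 6.07%. With that centring the same genes of the 10 were called in every comparison.

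**Figure D3:**
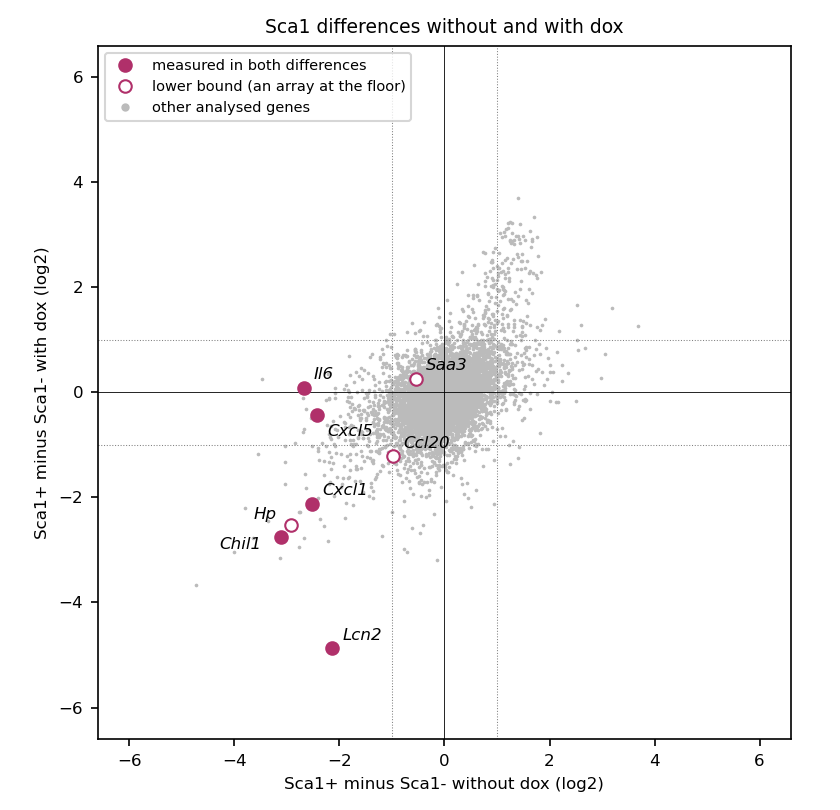
Sca1+ minus Sca1- log2 difference without dox (horizontal axis) against that with dox (vertical axis), drawn as in the plot of dox differences. Lcn2 lies lowest (-2.14 and -4.86), Hp, Chil1 and Cxcl1 lie together in the lower left, and Il6 (-2.68 and 0.09) and Cxcl5 (-2.42 and -0.44) lie near the horizontal axis; Ccl2 and Vcam1 are not drawn because both untreated arrays were at the floor.

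Promoter sequence was read from RefSeq (GRCm38.p6), 250 bases upstream of the annotated start, for the 6 of the 10 genes that matched by symbol: Cxcl1, Il6, Chil1, Ccl20, Lcn2 and Saa3. Hp, Cxcl5, Ccl2 and Vcam1 were not matched. Both strands were searched for the kappa-B consensus, the letters bound by NF-kB, for the STAT site TTCNNNGAA and for the AP-1 site TGANTCA. For C/EBP the letters TTGCNNCAA were searched, which hold a fixed spacing between their parts. C/EBP sites with another spacing were not searched, so a promoter without a match may still hold a C/EBP site. A shorter spacing between TTGC and CAA does occur in the stretches read. The Lcn2 stretch holds ttgctcaa, and the Il6 stretch holds ttgtgcaa, which has that form on the opposite strand. Matches to TTGCNNCAA, and their share of all stretches, therefore cannot tell which promoters hold a C/EBP site. The kappa-B consensus was found in 4 of the 6, namely Cxcl1, Il6, Chil1 and Ccl20, and in 7.25% of 32851 RefSeq promoter stretches of that length. The letters TTGCNNCAA were found in Cxcl1 (1.74% of all stretches) and the AP-1 letters in Il6 (6.75%). The STAT letters, present in 7.02% of all stretches, matched none of the 6. The promoters with a kappa-B match are printed here because they belong to genes with different patterns on the arrays: Cxcl1 and Chil1 were lower with dox, Il6 was higher with dox in Sca1+ cells, and Ccl20 stayed near the floor. They are written 5′ to 3′ on the gene's strand with motif matches in capitals; Cxcl1 is from chr5:90890995-90891244, Il6 from chr5:30012864-30013113, Chil1 from chr1:134181906-134182155 and Ccl20 from chr1:83116516-83116765, each on the plus strand.
Cxcl1: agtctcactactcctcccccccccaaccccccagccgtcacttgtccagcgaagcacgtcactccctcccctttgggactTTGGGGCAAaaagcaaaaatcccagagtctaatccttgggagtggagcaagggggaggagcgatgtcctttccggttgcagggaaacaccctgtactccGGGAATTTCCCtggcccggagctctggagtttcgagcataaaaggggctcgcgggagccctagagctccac
Il6: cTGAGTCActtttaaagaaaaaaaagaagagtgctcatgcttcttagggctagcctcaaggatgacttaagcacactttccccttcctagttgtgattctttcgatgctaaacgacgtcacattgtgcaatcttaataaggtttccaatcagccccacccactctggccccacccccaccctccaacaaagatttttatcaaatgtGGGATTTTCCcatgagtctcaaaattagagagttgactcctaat
Chil1: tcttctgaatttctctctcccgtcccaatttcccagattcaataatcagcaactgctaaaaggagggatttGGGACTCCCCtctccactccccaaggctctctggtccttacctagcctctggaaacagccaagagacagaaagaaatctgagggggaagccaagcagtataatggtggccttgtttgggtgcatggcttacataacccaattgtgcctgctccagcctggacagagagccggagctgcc
Ccl20: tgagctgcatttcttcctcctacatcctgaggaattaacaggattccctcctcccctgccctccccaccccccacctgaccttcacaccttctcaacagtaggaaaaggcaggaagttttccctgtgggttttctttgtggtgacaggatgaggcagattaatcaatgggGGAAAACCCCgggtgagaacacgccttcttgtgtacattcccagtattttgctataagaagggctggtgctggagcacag

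In Cxcl1 the capitals GGGAATTTCCC hold overlapping kappa-B matches on the 2 strands, from 71 to 61 bases before the start. The Cxcl1 capitals TTGGGGCAA match the letters TTGCNNCAA on the opposite strand. In Il6 the kappa-B match GGGATTTTCC lies 44 to 35 bases before the start and the AP-1 match TGAGTCA at the far end of the stretch. Chil1 has GGGACTCCCC at 179 to 170 bases and Ccl20 GGAAAACCCC, a match on the opposite strand, at 80 to 71 bases. A match of letters is a description, not a site in use. Lcn2 and Saa3 had no match in this window to the letters of the 4 motifs as searched, which for C/EBP leave out the shorter spacing.

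Other genes of the response were read from 8 lists chosen with earlier results of these arrays known. In the acute-phase list, 6 of the 9 genes past the filter were at least 2-fold lower with dox in both fractions and 0 higher, and the list's median dox difference was -2.31 in Sca1+ and -1.68 in Sca1- cells. Cp, the copper-carrying ferroxidase ceruloplasmin, was lower by all 8 of its probe sets, and the brightest gave log2 differences of -4.05 in Sca1+ and -1.83 in Sca1- cells. Cd14, the endotoxin co-receptor, stood at -2.31 and -3.39, and Lbp, which hands endotoxin to it, at -1.71 and -2.11; like Hp, Chil1 and Cxcl1 they were also at least 2-fold lower in Sca1+ cells without and with dox. Steap4, a metalloreductase, was at -2.73 and -1.44. The metallothionein genes Mt1 (-2.46 and -1.47) and Mt2 (-3.06 and -2.03), which bind zinc and copper, were lower as well. Of the 24 acute-phase genes with a probe set, 14 were at the floor on every array, among them Saa1, Saa2, Orm2, Lrg1 and the fibrinogen genes Fgb and Fgg.

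Among the other ligands the directions were mixed. The neutrophil chemokines Cxcl2 (at least 2.13 and 1.43 higher on the log2 scale with dox in Sca1+ and Sca1- cells) and Cxcl3 (at least 1.80 and at least 2.27 higher) were opposite to Cxcl1. The chemokines Cxcl16 (-2.31 and -2.27) and Cx3cl1 (-1.76 and -1.35), both made as membrane-bound forms, were lower; 3 dimmer Cx3cl1 probe sets did not reach the call. In all, 2 of 9 genes of that list were called higher under dox in each fraction and 2 were called lower, with medians of 0.01 and 0.14. Of 7 CC chemokine genes past the filter 0 were called in both fractions in either direction, with medians of 0.60 and -0.0022, and the brightest, Ccl28, stood at 0.59 in Sca1+ cells.

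Cytokine genes went both ways too: 4 of 14 were called higher under dox in each fraction and 4 were called lower, with medians of -0.51 and 0.04. The epithelial alarmin genes Tslp (at least 3.81 and at least 4.04 higher), Il33 (at least 3.05 and at least 2.50) and Il18 (2.87 and 2.58) were higher with dox, as was Il23a (2.29 and 1.51). The growth factor gene Csf3, which drives neutrophil production, was lower (-1.25 and -2.23), as were Csf1 (at least 2.45 lower, and -3.23), Clcf1 (at least 1.17 lower, and -1.15) and Lif, an interleukin-6 family cytokine (-2.16 and -2.18). A dimmer Lif probe set gave -0.56 and -1.08. Csf3 and Lif were also lower in Sca1+ than in Sca1- cells, at -2.29 and -1.71 without dox and -1.31 and -1.68 with it, and so was Il1rn, the interleukin-1 receptor antagonist (-2.12 and -1.34).

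The receptors and signalling genes were more often lower than higher. Of 17 receptor-list genes 8 were lower with dox in both fractions and 1 higher, with medians of -1.25 and -1.04. The oncostatin M receptor gene Osmr was at -3.54 and -2.20, the interleukin-1 receptor gene Il1r1 at least 2.54 and at least 2.51 lower, the TNF receptor gene Tnfrsf1a at -1.62 and -1.47 and the adaptor kinase gene Irak1 at -1.97 and -1.74. Il1rap, the co-receptor for interleukin-1 and interleukin-33, was higher (2.22 and 1.73). Of 13 genes of the C/EBP and STAT3 list 3 were lower and 1 higher, with medians of -1.17 and -0.56. Cebpb, a transcription factor of acute-phase promoters, had dox differences of -3.93 (Sca1+) and -1.72 (Sca1-), with log2 levels of 10.96 (Sca1+) and 11.42 (Sca1-) before dox and 7.03 and 9.70 under it. The lowest Cebpb array was the dox-treated Sca1+ one, as it was for Hp, Lcn2, Chil1, Cxcl1, Cp, Cd14, Lbp and Osmr, among others. Socs3, the feedback inhibitor of STAT3 signalling, stood at -2.57 and -1.63, and all 3 of its probe sets were called lower.

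NF-kB subunits, inhibitors and kinases gave 1 lower gene of 17 (Bcl3, a nuclear cofactor of NF-kB, at -1.93 and -1.23) and 0 higher, with medians of -0.45 and -0.46. Nfkbia, the inhibitor that NF-kB itself induces, stood at -0.62 and -0.85. In the list of adhesion genes and inflammatory enzymes 1 of 11 was higher and 3 lower, with medians of -0.03 and 0.32. The prostaglandin synthase gene Ptgs2 was higher by 1.62 and 1.91, and the mitochondrial superoxide dismutase gene Sod2 was at -1.96 and -1.52. Over all 8 lists 37 genes were called in both differences of the dox pair or of the Sca1 pair, Il1rn in the Sca1 pair alone. Of these, 22 have several probe sets, and in 16 of those at least 1 dimmer probe set did not reach the call. The background for the dox calls is 5.29% of all genes higher and 8.56% lower with dox in both fractions. For the Sca1 calls it is 1.08% higher and 0.881% lower in Sca1+ cells without and with dox.

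**Figure D4:**
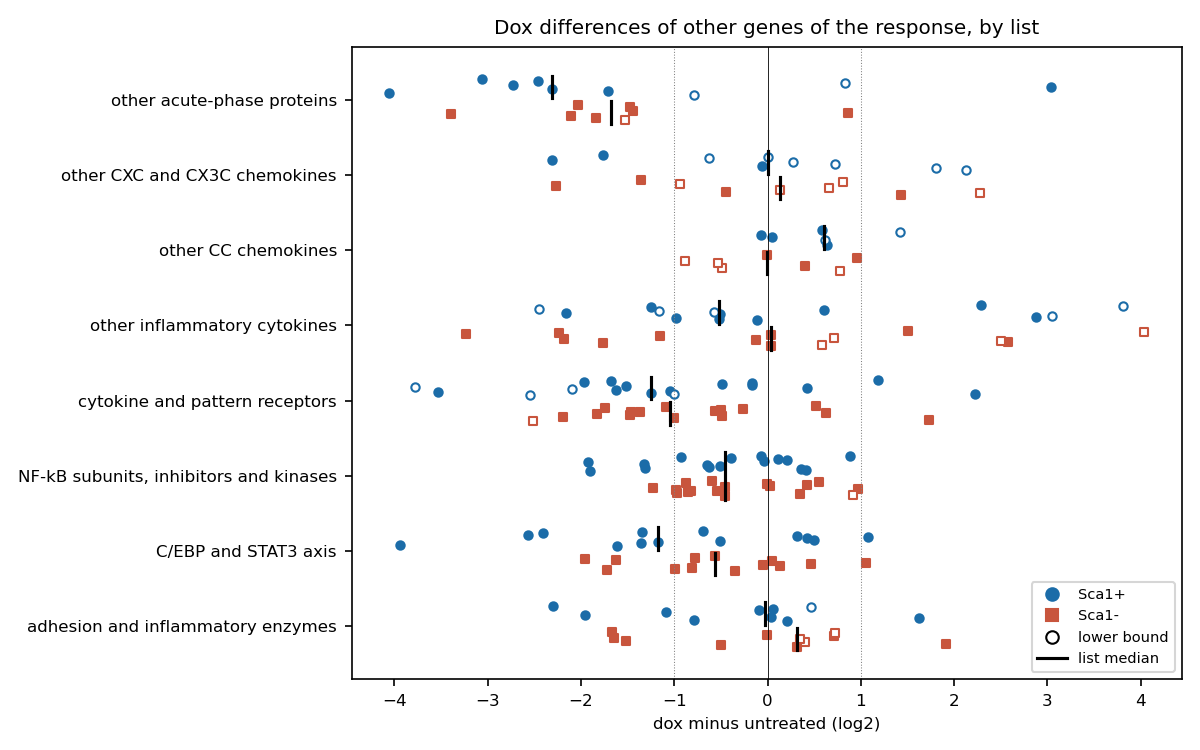
Dox minus untreated log2 difference (horizontal axis) of each gene past the filter in 8 lists (rows); circles are Sca1+ cells, squares Sca1- cells, open symbols lower bounds against the floor, black bars list medians, dotted lines 2-fold. The acute-phase list has medians of -2.31 and -1.68, while the chemokine and cytokine lists spread to both sides of 0.

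The genes whose 4-array profile was most like that of each member were searched among 7513 genes with an array at a linear level of 100 or more, by the mean absolute log2 difference of profiles centred on their own mean. Il6, whose highest array reached 99.0, fell just outside this limit. Chil1 was nearest to the channel gene Ano1 (0.13), the channel subunit gene Kcne3 (0.16) and the simple-epithelial keratin gene Krt7 (0.27). Cxcl1 was nearest to the TNF-induced gene Tnfaip2 (0.03), to Cd14 (0.17) and to Krt7 (0.20). The nearest to Lcn2 were Kcne3 (0.67), Ano1 (0.68) and Tnfaip2 (0.77), and to Hp Ctsh and Clmn (0.72 each) and Rassf4 (0.73), so the profiles nearest to these lay further off. Cxcl5 was nearest to Rhpn2 (0.15), Ptprz1 (0.19) and the phosphodiesterase gene Pde4b (0.22). A profile here is 4 arrays, and those of Hp, Clmn, Rassf4, Kcne3 and Tnfaip2 include a floor value.

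Markers of other cells that could carry these transcripts moved with some results. The summed linear level of the 12 leukocyte markers with a probe set was 131, 200.4, 232 and 299 on the arrays of Sca1+ and Sca1- cells without dox and of Sca1+ and Sca1- cells with it, of which 6 markers at the floor make up an equal part on each. Of these markers, Cd68 was higher with dox (2.79 in Sca1+ and 2.40 in Sca1- cells), S100a9 likewise (at least 1.30 in Sca1+ and at least 1.03 in Sca1- cells), and S100a8, which epithelial cells also express, was lower in Sca1+ than in Sca1- cells (-2.48 without and -2.08 with dox). The defining markers Ptprc, Cd3e, Cd79a and Itgam were at the floor on all arrays. The 8 fibroblast markers summed to 88.9, 105.4, 767 and 433.6 on the same arrays, with Dcn at least 6.09 and at least 5.10 higher with dox and Col1a1, Col3a1 and Pdgfrb at the floor on all arrays. Dcn, at log2 levels of 9.41 and 8.42 with dox, made up most of the sums there. A dimmer Dcn probe set was at least 0.58 higher in Sca1+ cells and at the floor on the Sca1- arrays, and did not reach the call. The 8 mammary epithelial markers summed to 13215, 15309, 9453 and 11118, and their median dox difference was -0.74 in Sca1+ and -0.78 in Sca1- cells. Of them 3 were lower with dox in both fractions and 0 higher: the basal keratin gene Krt5 (15.9-fold lower in Sca1+ and 8.76-fold lower in Sca1- cells) and the luminal keratin genes Krt8 (-1.73 and -1.96) and Krt7 (-2.51 and -2.46), these and the next values being log2 differences. Another luminal keratin gene, Krt18, stood at 0.07 and -0.79, and the basal keratin gene Krt14 at 0.10 and 0.38. Krt8 (-1.69 and -1.46 without and with dox) and Krt7 (-2.37 and -2.42) were lower in Sca1+ than in Sca1- cells, and the basal regulator gene Trp63 was higher (1.36 and 1.08). The part of cell composition in the results above was not tested. In sorted pools such as these, fewer cells of a type and less RNA per cell cannot be told apart.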

How the data were processed

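Total RNA of 4 sorted cell pools (50 to 500 ng) was biotinylated by 3' in vitro transcription for Affymetrix arrays, per the labels. The authors deposited log2 levels for 45101 probe sets; the sources used here do not state the summarisation, scaling or software. The shared minimum of 3.32 shows a floor at a linear level of 10, and the number of arrays limits the precision. Array medians ran from 3.48 to 3.70. Of the probe sets, 34958 have 1 symbol in the platform annotation, 932 have several and 9211 are unnamed. Per gene the probe set of highest mean was used, and genes with no array at or above 3.63 were left out. Differences of log2 levels were computed between arrays in Python 3.11.15 with pandas 2.3.3. A run on simulated levels, with planted differences past the 2-fold line, checked the code only. Its noise was set by hand, so it gives no error rate for these arrays. With 1 array per group, no test was made. The genes, lists and rules were chosen with earlier results of these data known. List genes with values were drawn, not exhaustively, from those at 2-fold or more in both differences of a pair and the brightest of each list; some at the floor, and epithelial markers, are named beside them, and all 10 members are given. Alternatives were 2 probe set rules, 2 centrings, floors at 20 and 50, and 2 filters.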

Additional observations from a re-analysis of the deposited data

Results flagged for a closer look

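Il6 and Saa3 differed in opposite directions in the 2 settings of a comparison. Il6 was lower in Sca1+ than in Sca1- cells without dox, by -2.68 on the log2 scale, and higher by 0.09 with dox. Saa3 had a dox difference of at least 0.26 upward in Sca1+ cells and of -0.55 or lower in Sca1- cells, and therefore a Sca1 difference of -0.55 or lower without dox and of at least 0.26 upward with dox. These differences of direction were not tested, the value of 0.09 is far under 2-fold, and each Saa3 value rests on 1 array next to the floor.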

How the results depend on the processing

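The 4 genes lower with dox in both fractions, and the 4 lower in Sca1+ cells without and with dox, were the same 4 under both probe set rules, with centring on all probe sets and with the floor at 20. Hp, Lcn2 and Chil1 have 1 probe set each, so among these 4 only Cxcl1 could change under the probe set rules. Centring on bright probe sets (mean linear level of 100 or more) added Ccl20 to the second group, just past the 2-fold line without dox. A floor at 50 left 3 in each: Chil1 dropped out of the first (-0.97 or below for dox in Sca1+ cells) and Hp out of the second (-0.21 or below with dox). It also took the Il6 Sca1 difference without dox to a bound of -0.38 and its dox difference in Sca1+ cells to 0.99. The count of genes higher with dox in both fractions, 1 (Vcam1), was 0 with probe sets averaged, with either raised floor, and among genes with an array at a linear level of 100 or more, which holds 5 of the 10; the Vcam1 dox difference in Sca1+ cells was then 0.69 with averaging and at least 0.56 with the floor at 20, where the Ccl20 Sca1 difference with dox was also bounded at -0.70. The last of these leaves Vcam1 out by its construction, a raised floor shortens each bound, and averaging brings in dimmer probe sets. The count of genes higher in Sca1+ cells both times was 0 under each alternative. Of 201 dox and Sca1 differences of single genes recomputed, 193 kept their side of the 2-fold line, 7 dropped under it and 1 passed it. The sign changed in 1, the Vcam1 Sca1 difference with dox, from -0.61 to 0.07 by the second probe set, under 2-fold each time. Many of the recomputed differences could not move. Only Cxcl1 and Vcam1 have several probe sets, so the other genes kept their values under the probe set rules. A raised floor likewise leaves a difference unchanged where both arrays lie above it. The gap between the dox differences of Cxcl1 was 0.40 and by its second probe set -0.061. Centring moved dox and Sca1 differences by at most 0.22 (all probe sets) or 0.05 (bright ones), and the gaps by 0.23 or 0.076. Over all genes the share lower with dox in both fractions was 5.77% without the filter and 10% among genes with an array at 100 or more, against 8.56%; the shares lower in Sca1+ cells both times were 0.594% and 1.12% against 0.881%. No paired analysis was possible because each group has 1 array.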

Other observations

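Ptx3, a long pentraxin made locally at sites of inflammation, was chosen after its values were seen. Of the 9 acute-phase genes past the filter it alone was 2-fold or more higher with dox in a fraction, by 3.03 on the log2 scale in Sca1+ cells and by 0.86 in Sca1- cells. Its log2 difference between Sca1+ and Sca1- cells was -2.08 without dox and 0.09 with dox, close to the -2.68 and 0.09 of Il6 and to the -2.42 and -0.44 of Cxcl5.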
